A study of Macaca fascicularis with 2 samples.

Results

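The actin and contractile cytoskeleton genes *ACTB*, *ACTG1*, *ACTA2*, *MYL9*, *TAGLN*, *TPM2*, *TPM4*, *CNN1*, *CFL1* and *VIM* were taken by symbol from a read count matrix of single cells, and 9 of these 10 genes were among the 21371 genes listed. *CFL1* was not listed, and no value is given for it. The cells came from wild type male cynomolgus monkeys aged 3 years and were sequenced by TAS-seq, which amplifies the cDNA of single cells captured on barcoded beads, as 1 library. That library pooled articular cartilage (AC) from 2 monkeys with nucleus pulposus (NP), the gel in the center of the intervertebral disc, from 1 lumbar disc of 1 of them. Its label names 3 tissue samples, 2 of AC and 1 of NP, which is fewer than the tags. Each cell carried 1 of 4 surface tags (A951, A952, A953 and A954), but the sources used here do not pair tags with tissues or monkeys, so the tags are given side by side and are not treated as replicates. Live tagged cells were sorted before capture.

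Notochordal NP cells (NCs) were defined as cells with 5 or more reads of *KRT19*, an epithelial keratin, and 5 or more reads of *TBXT*, the notochord transcription factor brachyury. Of 5653 cells, 310 were NCs by this rule and 5343 were not, and the latter are called other cells. Tag A952 held 236 of the NCs, tag A951 held 67, tag A953 held 5 and tag A954 held 2, against 889, 928, 1372 and 2154 other cells. The label was checked with *CDH2* and *NCAM1*, adhesion molecules of notochordal cells that the rule did not use. Their levels were 6.68 and 4.33 higher in NCs than in other cells on the log2 scale, whereas *KRT8*, *KRT18* and *CD24* were not listed. Just outside the rule, 85 other cells had 5 or more reads of only 1 of *KRT19* and *TBXT*, and just inside it 40 NCs had fewer than 20 reads of either gene. *KRT19* and *TBXT* were detected in 10.6% and 10.4% of other cells, with a median of 1 read in the cells that had any. NCs were also divided by *SHH*, the hedgehog ligand sonic hedgehog, into 110 SHH-positive NCs with at least 1 *SHH* read and 200 SHH-negative NCs with none. Of the other cells, 8.20% had an *SHH* read (95% exact binomial interval, 7.48 to 8.97), again with a median of 1 read where present, against a median of 18.5 reads in SHH-positive NCs.

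Levels are reads per 1000000 reads (rpm), pooled over the cells of a group unless they are said to be per cell. NCs had a median of 186370 reads and 4061 genes detected per cell, and other cells had 199072 reads and 3819 genes. SHH-positive NCs were sequenced more deeply (median 240300 reads) than SHH-negative NCs (165790 reads). With 1 library no statistical test was possible, and every interval covers counting error only. Reads were counted without molecular identifiers, so PCR copies enter as separate reads. The intervals of levels and ratios are therefore too narrow even for counts of molecules, and they leave out the spread between cells. A log2 ratio of at least 1 in either direction, a 2-fold difference, was taken as a call, and genes with a read in fewer than 10% of cells on both sides were set aside (the detection filter).

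Actin monomers polymerize into thin filaments, and each actin gene encodes a slightly different monomer. *ACTB* and *ACTG1* encode the β and γ actins found in nearly all cells, whereas *ACTA2* encodes the α actin typical of vascular smooth muscle and myofibroblasts. Tropomyosins (*TPM2*, *TPM4*) lie along the filament, transgelin (*TAGLN*) and calponin 1 (*CNN1*) bind it, the light chain encoded by *MYL9* regulates the myosin that pulls on it, and cofilin 1 (*CFL1*) severs it. Vimentin (*VIM*) builds intermediate filaments, a separate system that is typical of mesenchymal cells and chondrocytes. Notochordal cells are large cells with vacuoles, known for a dense actin and keratin cytoskeleton, and they persist in the NP of young animals.

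The listed genes took 2.44% of all reads of NCs and 1.08% of those of other cells. Within tags A951, A952, A953 and A954 the share was 2.08%, 2.58%, 1.43% and 1.74% in NCs and 1.17%, 1.18%, 0.963% and 1.09% in other cells, so that every NC value was above every value of other cells. The NC values of A953 and A954 rest on 5 and 2 cells. Of the 9 listed genes, 8 passed the detection filter, and 5 of them (*TAGLN*, *MYL9*, *ACTA2*, *ACTB* and *ACTG1*) were at least 2-fold higher in NCs, 0 were at least 2-fold lower and 3 (*TPM4*, *TPM2* and *VIM*) lay within 2-fold. Among all 9964 genes that passed the filter, 24.4% were at least 2-fold higher in NCs and 11.4% were at least 2-fold lower. The median log2 ratio was 1.14 for the 8 genes and 0.30 for all genes tested. Relative to the latter median, 3 genes (*TAGLN*, *MYL9* and *ACTA2*) were still at least 2-fold higher, and *ACTB* and *ACTG1* were 0.95 and 0.74 higher on the log2 scale. With that centering, the calls over all genes were 1723 higher and 1566 lower, against 2432 and 1131 without it.

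**Figure D1:**
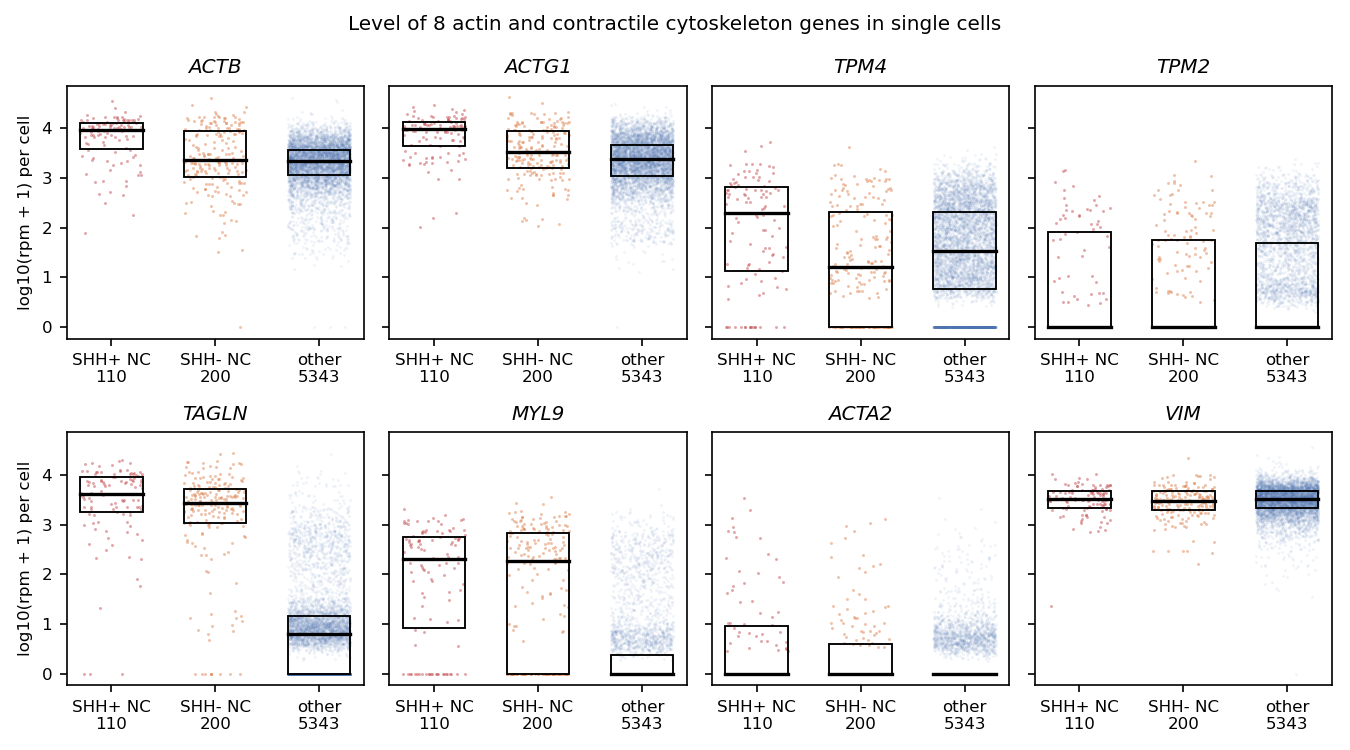
Level of 8 genes in every cell, as log10(rpm + 1), in 110 SHH-positive NCs, 200 SHH-negative NCs and 5343 other cells, with each point a cell, each box the middle 50% of cells and the thick line the median. *TAGLN* and *MYL9* are high in most NCs of both kinds and low in most other cells, *ACTB* and *ACTG1* reach higher medians in SHH-positive NCs, and *VIM* lies at nearly the same height in all groups.

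*TAGLN*, which encodes the actin-binding protein transgelin (SM22α), had the largest ratio of the set. Its level in NCs was 4379 rpm in tag A951, 4886 in A952, 1674 in A953 and 5880 in A954, against 156, 265, 86.3 and 101 rpm in other cells of the same tags. No NC value overlapped those of other cells, but the values of A953 and A954 rest on 5 and 2 NCs. The share of all genes tested without such overlap is not given here. Pooled over tags, the level was 4686 rpm in NCs and 129 rpm in other cells, a log2 ratio of 5.18 (95% interval, 5.17 to 5.19). The difference was spread over most NCs: 91.6% had 5 or more *TAGLN* reads against 19.1% of other cells, and the per-cell median was 3205 rpm in NCs and 5.2 rpm in other cells. Other cells were uneven, since their upper quartile was 13.3 rpm but their 90th percentile was 230.1 rpm. At least 1 *TAGLN* read was seen in 96.1% of NCs (93.3 to 98.0) and in 64.8% of other cells (63.5 to 66.1), and when each cell was thinned at random to 50000 reads the shares were 93.6% and 34.7%. Thinning left out 11 NCs and 196 other cells with too few reads.

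*MYL9*, the regulatory light chain of smooth muscle and non-muscle myosin II, showed a similar split. NCs had 393 rpm in tag A951, 412 in A952, 221 in A953 and 757 in A954, and other cells had 34.5, 43.8, 25.8 and 26.8 rpm, again without overlap and with the same limits. The pooled levels were 403 and 30.1 rpm, with a log2 ratio of 3.74 (3.72 to 3.77). *MYL9* was detected in 72.3% of NCs (66.9 to 77.2) and 25.4% of other cells (24.2 to 26.6), and after thinning in 69.6% and 14.1%. At 5 or more reads the shares were 65.5% and 10.5%. Unlike *TAGLN*, *MYL9* was therefore not detected in a sizable part of the NCs, and its per-cell level in NCs ranged from 0 rpm at the lower quartile to 648 rpm at the upper quartile, with a median of 187 rpm.

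The cytoplasmic actins differed less between NCs and other cells, and their difference was carried mainly by tag A952. *ACTB* had 5345 rpm in NCs of tag A951, 7847 in A952, 3281 in A953 and 4096 in A954, against 3170, 3419, 2533 and 3164 rpm in other cells. The level in NCs was the higher in each tag, but the value of A953 NCs lay below that of A952 other cells. The log2 ratio was 1.25 over all cells (7213 against 3037 rpm) and 0.75, 1.20, 0.37 and 0.37 within the tags. *ACTG1* gave 5862, 8353, 4177 and 4769 rpm in NCs and 4177, 4026, 3474 and 3701 rpm in other cells, with log2 ratios of 0.49, 1.05, 0.27 and 0.37. Over all cells it stood just past 2-fold, at 1.04 (7735 against 3763 rpm). Without the cells of A952, the ratios were 0.75 for *ACTB* and 0.59 for *ACTG1*, so that neither reached 2-fold, and without the 5 cells of each group with the most reads of the gene *ACTG1* was at 0.98.

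Both cytoplasmic actins were detected in nearly every cell, so their spread lay in the level. In NCs *ACTB* ran from 1385 rpm at the lower quartile through a median of 4487 to 10911 rpm at the upper quartile, whereas in other cells the quartiles were 1127, 2168 and 3729 rpm. The lower quartiles were thus close and the upper quartiles far apart. For *ACTG1* the quartiles were 2081, 5524 and 11254 rpm in NCs and 1121, 2412 and 4648 rpm in other cells. Within tag A951 the per-cell median of *ACTB* was 1984 rpm in NCs and 2210 rpm in other cells, against 6649 and 2259 rpm within tag A952. The upper quartile in A951, 7551 against 3920 rpm, was again higher in NCs.

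*ACTA2* was carried by a few cells. NCs had 1.97 rpm in tag A951, 90.1 in A952, 0.882 in A953 and 95.1 in A954, whereas other cells had 10.2, 4.69, 6.16 and 6.05 rpm, so the 2 groups overlapped and the direction differed between tags. The pooled log2 ratio of 3.44 (70.7 against 6.54 rpm) fell to -0.98 without tag A952. Of the 42 NCs with 5 or more *ACTA2* reads, 39 were in A952, where they made up 16.5% of NCs, against 2.99% (2 of 67) in A951. The 5 NCs with the most *ACTA2* reads held 54.0% of all *ACTA2* reads of NCs, and without the 5 highest cells of each group the log2 ratio was 2.64. Actin coding sequences are nearly identical and reads mapping to several places were counted, so reads may be shared among actin genes, and this was not tested. *ACTA2* reads numbered 0.176 per 1000 *ACTB* and *ACTG1* reads in NCs of A951 and 5.56 in those of A952, against 0.962 in other cells.

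The tropomyosins showed no 2-fold difference between NCs and other cells. *TPM4* had 182 rpm in tag A951, 399.7 in A952, 169 in A953 and 57.0 in A954 in NCs, and 210, 228, 184 and 194 rpm in other cells. Only the NCs of A952 were higher than the other cells of their tag, and the pooled log2 ratio of 0.82 (350 against 199 rpm) was -0.13 without the cells of that tag. *TPM4* was detected in 76.5% of NCs and 79.1% of other cells, with per-cell medians of 32.0 and 33.6 rpm but upper quartiles of 422 and 205 rpm. *TPM2* had 79.2, 89.8 and 167 rpm in NCs of tags A951, A952 and A953 and 0 reads in the 2 NCs of A954, against 84.0, 69.0, 87.6 and 72.1 rpm in other cells. Its pooled log2 ratio was 0.22 (0.18 to 0.25), -0.09 relative to the median of all genes, and 47.1% and 46.1% of cells had a read.

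*VIM* had the smallest ratio of the 8 genes. Its level was 4585, 3679, 4593 and 1776 rpm in NCs of tags A951 to A954 and 3816, 3761, 3231 and 3606 rpm in other cells, with NCs the higher in A951 and A953 and the lower in A952 and A954. The pooled log2 ratio was 0.12, or -0.18 relative to the median of all genes. The per-cell quartiles were 2016, 3110 and 4658 rpm in NCs and 2161, 3242 and 4666 rpm in other cells. *CNN1*, a marker of differentiated smooth muscle, had 0 reads in the 310 NCs, for which a floor of 3 reads allows a share of up to 0.968% of cells with a read and the exact interval up to 1.18%, and 1 read in each of 2 other cells, so no ratio was formed.

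**Figure D2:**
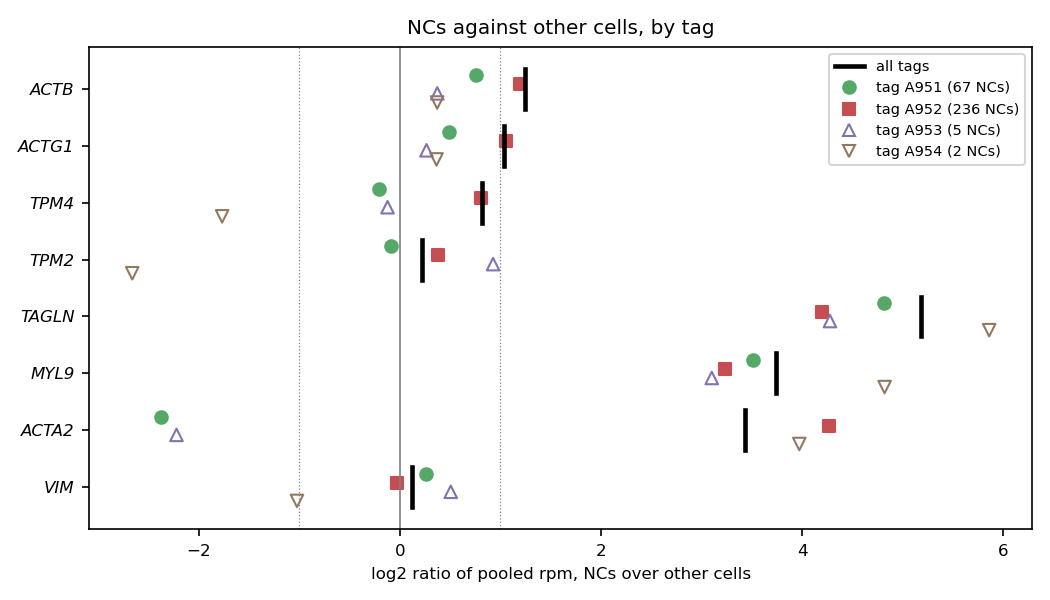
Log2 ratio of the pooled level in NCs over that in other cells for 8 genes, over all cells (black bars) and within each tag (symbols, open where a tag held fewer than 20 NCs), with dotted lines at 2-fold. *TAGLN* and *MYL9* lie beyond 2-fold in every tag, *ACTB* and *ACTG1* above 0 in every tag, and *ACTA2* on both sides of 0. The *TPM2* value of A954 and the *ACTA2* value of A953 rest on a floor of 3 reads and are upper bounds.

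Markers of contractile and other cell types were compared in the same way. Of 12 smooth muscle and pericyte markers, 11 were listed, and their summed level was 169 rpm in NCs and 124 rpm in other cells. By tag the sum was 200.5, 166, 87.7 and 15.2 rpm in NCs and 149, 138, 112 and 119 rpm in other cells. *MYH11*, the smooth muscle myosin heavy chain, was at 0.954 rpm in NCs and 2.17 rpm in other cells, and no NC had 5 reads of it. *MYOCD*, the smooth muscle cofactor myocardin, was at 0.605 and 0.471 rpm, and *MCAM* and the muscle intermediate filament gene *DES* were at 0.0151 and 0.121 rpm in NCs. In other cells *DES* was at 1.78, 3.86, 3.70 and 2.90 rpm in tags A951 to A954. The 7 markers that passed the filter had a median log2 ratio of 0.63, against 0.30 for all genes tested, and *RGS5* was at least 2-fold higher (8.45 against 3.01 rpm) and *MYH11* at least 2-fold lower. The smooth muscle and pericyte markers named here held only a small part of the summed level in NCs. Most of it came from listed markers that are not named, so the low levels above do not stand for the whole list. The summed level of 5 listed endothelial markers was 3.72 rpm in NCs and 3.04 in other cells, and that of 6 leukocyte markers 28.0 and 23.1 rpm. Of 3 listed skeletal muscle markers, the skeletal α actin gene *ACTA1* was higher in NCs (22.2 against 1.07 rpm) and *TNNT3* lower (2.13 against 54.8 rpm). *ACTA1*, with a read in 5.05% of other cells, passed the filter through NCs alone. Whether it shares reads with other actin genes was not tested. The sum of 5 proliferation markers was 70.3 and 41.4 rpm and reached 944 rpm in the 5 NCs of A953. Of 7 listed chondrocyte markers, 5 were at least 2-fold lower in NCs, among them *COL2A1*, type II collagen, at 1269 against 20072 rpm, and 2 were higher (*ACAN* and *SOX9*).

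**Figure D3:**
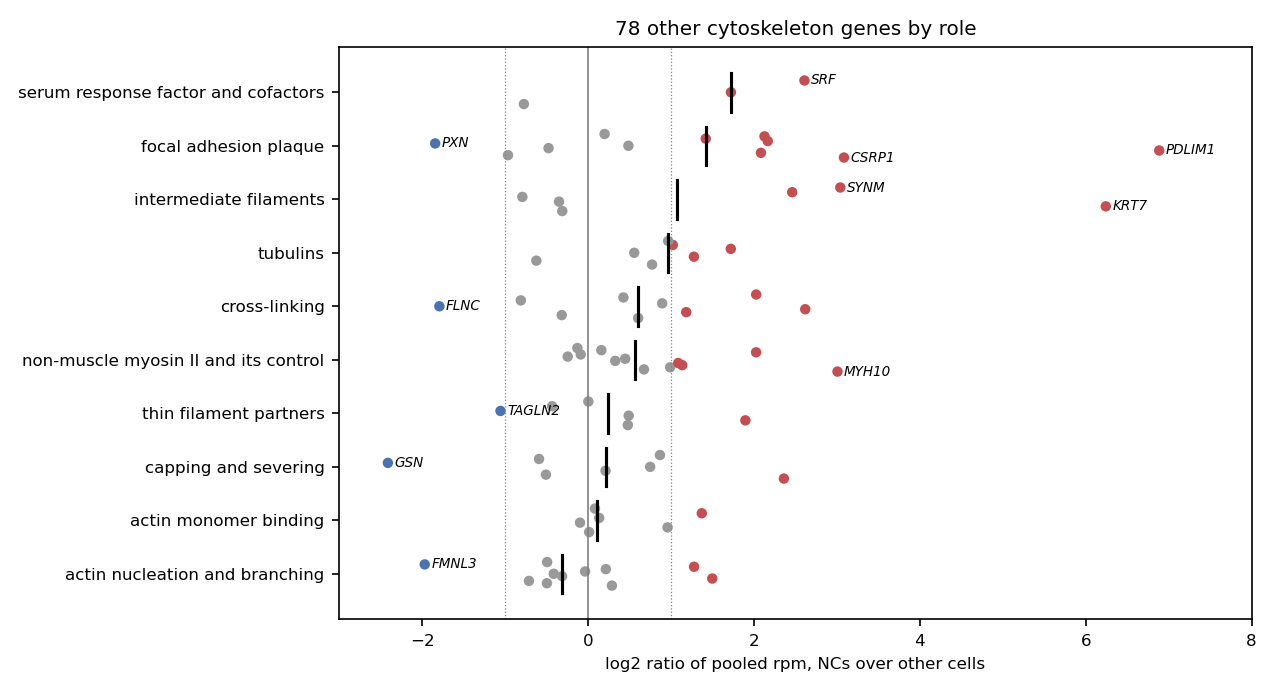
Log2 ratio of the pooled level in NCs over that in other cells for 78 other cytoskeleton genes grouped by role, with red at least 2-fold higher, blue at least 2-fold lower, gray within 2-fold and black bars at the median of each group. Focal adhesion plaque genes have a median of 1.42, and genes of actin nucleation and branching a median of -0.31.

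A wider list of 94 cytoskeleton genes was used to place these genes, of which 82 were listed and 78 passed the filter. In NCs 26 of the 78 were at least 2-fold higher, 5 at least 2-fold lower and 47 within 2-fold, with a median log2 ratio of 0.46. Relative to the median of all genes the counts were 20 higher and 10 lower, and with that centering 17.3% of all genes tested were higher and 15.7% lower. Without it, as given above, 24.4% of all genes tested were higher and 11.4% lower. Of the 26 higher genes, 2 (*KRT7* and *TUBB3*) passed the filter through NCs alone, as did 485 of the 2432 over all genes. For these the filter itself favored a higher level in NCs. Focal adhesion plaque genes, whose products anchor actin filaments at the membrane, included 6 of 11 higher and 1 lower. Serum response factor and its cofactors, which drive transcription of many actin genes, included 2 of 3 higher. Tubulins included 3 of 7 higher (*TUBB3* among them), intermediate filament genes 3 of 6 (*KRT7* among them), cross-linking genes 3 of 9 with 1 lower, and genes of non-muscle myosin II and its control 4 of 12. Of the remaining groups, 1 of 6 actin monomer binding genes was higher, 2 of 11 nucleation and branching genes were higher and 1 lower, 1 of 7 capping and severing genes was higher and 1 lower, and 1 of 6 thin filament partners was higher and 1 lower. Without A952 the higher genes *FLNA* (cross-linking, 0.77), *MYL6* (myosin II, 0.63), *PFN2* (monomer binding, 0.93) and *TUBB3* (tubulin, 0.86) fell short of 2-fold.

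The largest ratio in the wider list was that of *PDLIM1*, a PDZ and LIM domain protein that binds α-actinin on stress fibers. It had 324, 405, 177 and 521 rpm in NCs of tags A951 to A954 and 3.45, 11.0, 2.21 and 1.28 rpm in other cells, with a pooled log2 ratio of 6.89. *CSRP1*, a LIM domain protein of actin bundles, gave 3.09 (605 against 71.3 rpm), and *MYH10*, the heavy chain of non-muscle myosin IIB, gave 3.01 (350 against 43.5 rpm). *SYNM*, the intermediate filament protein synemin, gave 3.04 (165 against 20.0 rpm). *KRT7*, a simple epithelial keratin, gave 6.24 (19.3 against 0.255 rpm) but was detected in 10.3% of NCs only. *SRF*, serum response factor, had 291, 332 and 243 rpm in NCs of tags A951, A952 and A953, 0 reads in the 2 NCs of A954, and 43.8 to 61.9 rpm in other cells of the 4 tags.

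The 5 genes of the wider list that were lower in NCs were *GSN*, *FMNL3*, *PXN*, *FLNC* and *TAGLN2*. *GSN* encodes gelsolin, which severs and caps actin filaments, and had 136, 160, 342 and 586 rpm in NCs of tags A951 to A954 against 934, 920, 629 and 971 rpm in other cells. Its pooled log2 ratio was -2.41. *TAGLN2* encodes transgelin 2, the broadly expressed relative of *TAGLN*, and was at 257 rpm in NCs and 533 rpm in other cells, a log2 ratio of -1.05. It was higher in NCs than in other cells within A953, at 653 against 590 rpm. *PXN*, the focal adhesion adaptor paxillin, gave -1.84 (88.0 against 316 rpm), *FMNL3*, a formin, gave -1.97 (6.92 against 27.1 rpm), and *FLNC*, filamin C, gave -1.79 (1.45 against 5.03 rpm). Without A952 neither *FMNL3* (-0.37) nor *FLNC* (-0.02) was 2-fold lower, and *TAGLN2*, at 269 against 536 rpm, fell just short of it. *FMNL3* was at 21.9 against 30.0 rpm in A951 and 2.88 against 26.8 rpm in A952. In tag A951 *FLNC* was not lower, at 5.16 rpm in NCs and 4.93 rpm in other cells.

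Within NCs, SHH-positive cells had more reads of the cytoplasmic actins and *TPM4* than SHH-negative cells. The listed genes together took 3.00% of reads in SHH-positive and 2.02% in SHH-negative NCs. Of the 8 genes that passed the filter, 1 (*TPM4*) was at least 2-fold higher in SHH-positive NCs, 0 were at least 2-fold lower and 7 lay within 2-fold, against 7.11% of all 10317 genes tested higher and 10.9% lower. The median log2 ratio was 0.61 for the 8 genes and -0.08 for all genes tested. Only tags A951 (16 SHH-positive and 51 SHH-negative NCs) and A952 (93 and 143) held enough NCs to be read apart.

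*TPM4* had 579 rpm in SHH-positive and 238 rpm in SHH-negative NCs of A952, but 122 and 202 rpm in those of A951. The direction was thus opposite in the 2 tags, and the pooled log2 ratio of 1.20 (516 against 225 rpm) became -0.51 without A952. By cell, the median was 196 rpm in SHH-positive and 15.1 rpm in SHH-negative NCs, and 69.1% and 42.5% of cells had 5 or more reads. In A952 the per-cell medians were 321 and 17.9 rpm, and in A951 they were 17.3 and 10.3 rpm.

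*ACTB* had 6288 rpm in SHH-positive and 5019 rpm in SHH-negative NCs of A951, and 9894 and 5996 rpm in those of A952. SHH-positive NCs were the higher in both tags, with log2 ratios of 0.33 and 0.72 and of 0.73 over all NCs (9337 against 5614 rpm). *ACTG1* had 6992 and 5471 rpm in A951 and 10544 and 6371 rpm in A952, with log2 ratios of 0.35, 0.73 and, over all NCs, 0.73. The typical cell differed more than the pooled reads, since the per-cell median of *ACTB* was 9364 rpm in SHH-positive and 2345 rpm in SHH-negative NCs, and that of *ACTG1* 9589 and 3399 rpm. The upper quartiles of *ACTB* were 12972 and 8915 rpm and the lower quartiles 3830 and 1028 rpm, so that as a ratio the classes differed less at the upper quartile than at the lower quartile or the median.

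Because SHH-positive NCs had more reads, the comparison was also made within NCs at or below and above their median number of reads. Among the 40 SHH-positive and 115 SHH-negative NCs of the shallower part, the log2 ratio was 0.86 for *ACTB*, 0.81 for *ACTG1* and 1.79 for *TPM4*. Among the 70 and 85 NCs of the deeper part it was 0.64, 0.65 and 1.01. All 3 ratios kept their sign in both parts. Per-cell medians of *ACTB* were 8683 and 1951 rpm in the shallower part and 9719 and 4099 rpm in the deeper part.

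The remaining genes gave smaller or less stable differences by *SHH*. *TAGLN* had 3654 rpm in SHH-positive and 4630 rpm in SHH-negative NCs of A951 and 5979 and 3897 rpm in those of A952, so its pooled log2 ratio of 0.49 was not of 1 sign in both tags. *ACTA2* had 1.28 and 2.21 rpm in A951 and 113 and 69.3 rpm in A952, with a pooled log2 ratio of 0.94 that was -1.48 without A952, and it was detected in 41.8% of SHH-positive (32.5 to 51.6) and 27.0% of SHH-negative NCs (21.0 to 33.7), or in 29.5% and 14.9% after thinning. *MYL9* (381 and 420 rpm), *TPM2* (86.5 and 92.9 rpm) and *VIM* (4013 and 3762 rpm) had log2 ratios of -0.14, -0.10 and 0.09. In A951 their levels in SHH-positive and SHH-negative NCs were 274 and 435 rpm for *MYL9*, 121 and 64.9 rpm for *TPM2* and 3720.3 and 4884 rpm for *VIM*, and in A952 they were 405 and 417, 74.8 and 103, and 3982 and 3405 rpm. *TPM2* and *VIM* thus differed in direction between the tags. Of the 78 wider cytoskeleton genes, 5 were at least 2-fold higher in SHH-positive NCs, 3 lower and 70 within 2-fold, shares no greater than the 7.11% and 10.9% of all genes tested. Calponin 2 (*CNN2*), an actin-binding relative of *CNN1*, was the one among the 5 found in most SHH-positive NCs, with 263 rpm against 109 rpm and a log2 ratio of 1.27, which was 0.44 without A952. *NES*, *TUBB3*, *TUBA1C* and *KRT7* were the others, with ratios of 3.87, 1.31, 1.26 and 1.14 and with 5 or more reads in at most 18.2% of SHH-positive NCs. *NES* passed the filter through SHH-positive NCs alone. Without A952 *KRT7* and *TUBB3* were not higher, at 0.250 against 20.3 rpm and 1.00 against 1.49 rpm. Those lower were *FLNC* (-1.81), the myosin light chain kinase gene *MYLK* (-1.20) and the formin gene *FMNL2* (-1.07).

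**Figure D4:**
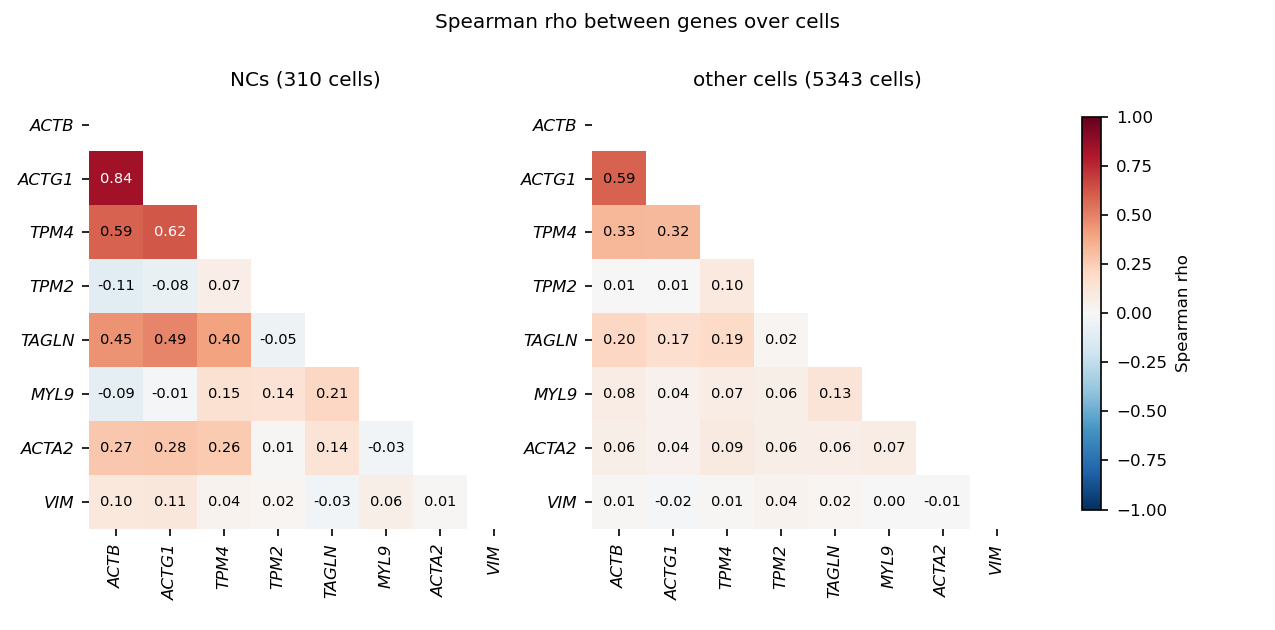
Spearman rho between 8 genes over 310 NCs (left) and over 5343 other cells (right), from log2(rpm + 1) of each cell, with rho printed in each square. In NCs *ACTB*, *ACTG1*, *TPM4* and *TAGLN* form a block with rho from 0.40 to 0.84, whereas *VIM*, *TPM2* and *MYL9* stay near 0 with the actins.

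The genes were next compared with each other over cells by Spearman rho of log2(rpm + 1). All cells share 1 library and differ in depth, and the values are descriptions. Over the 310 NCs, 6 of 28 pairs had a rho of 0.3 or more, and these were all pairs among *ACTB*, *ACTG1*, *TPM4* and *TAGLN*. *ACTB* and *ACTG1* had a rho of 0.84, *ACTG1* and *TPM4* 0.62, *ACTB* and *TPM4* 0.59, *ACTG1* and *TAGLN* 0.49, *ACTB* and *TAGLN* 0.45, and *TAGLN* and *TPM4* 0.40. *ACTA2* came next, with 0.28 to *ACTG1*, 0.27 to *ACTB* and 0.26 to *TPM4*. *MYL9* had 0.21 with *TAGLN* but -0.09 with *ACTB* and -0.01 with *ACTG1*, although both *MYL9* and *TAGLN* separated NCs from other cells. *VIM* and *TPM2* had no rho above 0.14 or below -0.11 with any other of these genes.

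As background, among the 4108411 pairs of the 2867 genes detected in at least 50% of NCs, 0.105% reached a rho of 0.3, and 6 of the 15 pairs of the 6 member genes in that set (40.0%) did so. The median rho of all pairs was 0.05 and that of the 15 pairs 0.15. Depth moved with several members: over NCs the rho with total reads was 0.25 for *ACTB*, 0.24 for *ACTG1*, 0.29 for *TPM4* and 0.08 for *TAGLN*. After total reads and genes detected were regressed out, the number of pairs at 0.3 or more in NCs was again 6. Within tag A951 5 of 28 pairs reached 0.3 and within A952 7 did, and there were 9 over SHH-positive and 6 over SHH-negative NCs. Over the 67 NCs of A951 *ACTB* and *ACTG1* had a rho of 0.73, *ACTG1* and *TPM4* 0.49 and *ACTB* and *TAGLN* 0.26, and over the 236 NCs of A952 these were 0.83, 0.62 and 0.48. Over SHH-positive NCs *ACTB* had a rho of 0.80 with *ACTG1* and 0.48 with *TPM4*, and over SHH-negative NCs 0.79 and 0.54.

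**Figure D5:**
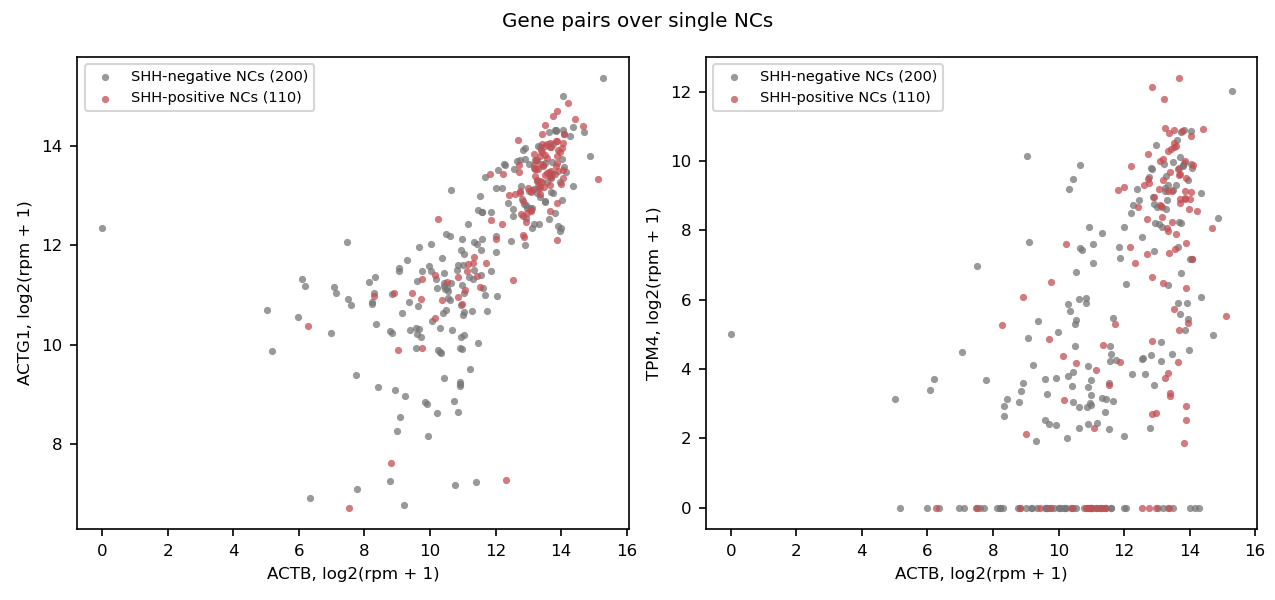
*ACTG1* (left) and *TPM4* (right) against *ACTB* over 310 NCs, each axis as log2(rpm + 1), with SHH-positive NCs in red and SHH-negative NCs in gray. *ACTB* and *ACTG1* rise together (rho 0.84), most SHH-positive NCs lie at the upper end, and NCs without a *TPM4* read lie along the bottom of the right panel.

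In other cells each pair that reached 0.3 in NCs had a lower rho. Over 5343 cells, 3 of 36 pairs had a rho of 0.3 or more, namely *ACTB* with *ACTG1* (0.59), *ACTB* with *TPM4* (0.33) and *ACTG1* with *TPM4* (0.32). The 36 pairs, unlike the 28 of NCs, include those with *CNN1*, which had only 2 reads in other cells. These were also 3 of the 10 pairs (30.0%) of the 5 member genes detected in at least 50% of other cells, against 0.0153% of all pairs of the 2678 such genes. The median rho was 0.18 for those 10 pairs and 0.07 for all pairs. The median of 0.15 in NCs is over 15 pairs that include those with *MYL9*, so the 2 medians cannot be set side by side. After total reads and genes detected were regressed out, *ACTB* with *ACTG1* was at 0.57, and *ACTB* and *ACTG1* with *TPM4* were just under 0.3, at 0.29 and 0.28. Within the tags the rho of *ACTB* and *ACTG1* was 0.56, 0.62, 0.60 and 0.56. *TAGLN* had 0.20 with *ACTB* in other cells, where most cells had few or no reads of it.

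The genes closest to each member over NCs were taken from those 2867 genes. For *ACTB* they were *ACTG1* (0.84) and the metallothionein genes *MT2* (0.66) and *MT1E* (0.64), and for *ACTG1* they were *ACTB*, *VMP1* (0.62) and *TPM4* (0.62). *ACTB* had 109 genes at a rho of 0.3 or more, *ACTG1* 104, *TPM4* 75, *TAGLN* 16, *VIM* 3 and *MYL9* 0. The 3 nearest genes of *TAGLN* were *ACTG1*, *ACTB* and *TPM4*, which are all in the set described here, and those of *TPM4* were *ACTG1*, *ACTB* and *CNN2* (0.50). The nearest to *VIM* were *COL11A2* (0.34) and *COL11A1* (0.32), which encode chains of cartilage type XI collagen, and *ANXA2* (0.31). *MYL9* had no close neighbor, with *GLIPR2* (0.27), *KRR1* (0.26) and *BHLHE41* (0.25) the nearest. In other cells the next gene after *TPM4* for both cytoplasmic actins was *ZYX*, the focal adhesion protein zyxin, with a rho of 0.30 to *ACTB* and 0.31 to *ACTG1*.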

How the data were processed

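The authors mapped TAS-seq reads to the Macaca fascicularis genome (build not given in the sources used here) with HISAT2 2.2.1 and assigned them to whole genes, strand by strand, with featureCounts 2.0.2, keeping reads with several possible origins, and summed them per cell with velocyto. The deposited values are raw read counts for every gene in every cell, with no normalization and no molecular identifiers, so copies of near-identical genes may share reads and PCR copies are included. A second matrix with 1358 cell columns was not used, and the tag library was not analysed here.

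Of 5723 cells, 5674 had 1 tag, 42 were doublets by tag and 7 had no tag. Cells with 200 to 9000 genes and under 5% of reads on 13 mitochondrial genes were kept, leaving 5653, and no further doublet caller was run. No cell number occurred under more than 1 tag. Total reads per kept cell ranged from 24907 to 1290096.

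Levels were pooled rpm, with a floor of 3 reads per group in ratios. Shares have exact Clopper-Pearson intervals, levels exact Poisson intervals and ratios exact binomial intervals of the pooled reads (all 95%), which cover counting error only. Those of levels and ratios take PCR copies as separate reads and leave out the spread between cells. Correlations were Spearman's, of log2(rpm + 1). The genes, the lists and the tests were chosen with earlier results of these data known. Named genes were the members, the genes that set the groups, the 5 wider list genes with the largest ratio in each direction past 2-fold, the 3 nearest genes by rho of each member detected in at least 50% of NCs, and the marker lists, from which examples were taken after their values were seen. *SRF*, *MYH10* and other genes named beside a group count fall under the same rule or were also chosen after their values were seen. Calculations used Python 3.11.15, numpy 2.4.6, scipy 1.17.1, pandas 2.3.3 and matplotlib 3.10.9 and were tested on simulated data. Alternatives covered limits on cells, thinning, scaling, definitions of NCs and of SHH-positive NCs, leaving out each tag, the pseudocount, the correlation measure and the detection limit. The median over cells, leaving out the 5 highest cells, splitting NCs by depth and the wider list genes without A952 were added after the data were seen.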

Additional observations from a re-analysis of the deposited data

Results flagged for a closer look

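For 4 genes the NCs differed from other cells in opposite directions in the 2 tags with the most NCs, A951 with 67 and A952 with 236. The log2 ratio of NCs over other cells in A952 minus that in A951 was 6.64 for *ACTA2*, 1.02 for *TPM4*, 0.46 for *TPM2* and -0.30 for *VIM*. *ACTA2*, *TPM4* and *TPM2* were higher in NCs of A952 and lower in those of A951, and *VIM* was the reverse. Each tag is 1 set of cells, so these differences were not tested, and tissue, monkey and tag cannot be told apart. The only NP sample in the label came from 1 monkey, so the NCs of the 2 tags are not to be read as 2 animals. The *ACTA2* value rests on few cells, since 2 of the NCs of A951 and 39 of those of A952 had 5 or more reads. For *TPM4*, *TPM2* and *VIM* the ratio lay within 2-fold in both tags.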

How the results depend on the processing

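The main limits are 1 library, tags that are not tied to tissues, counts that keep PCR copies and most NCs in 1 tag. The number of member genes at least 2-fold higher in NCs was 5, and it was 3 with median-of-ratios scaling, with NCs from 1 read of *KRT19* and *TBXT*, and with the median over cells, and ranged from 2 to 5 when each tag was left out (2 without A952). The other settings gave 4 or 5, and 0 genes were lower under any of them. The number higher in SHH-positive NCs was 1, and it was 2 after thinning, with the mean over cells, with median-of-ratios scaling, without the 5 highest cells and within the shallower NCs, and 3 with the median over cells. It was 1 whichever tag was left out, but without A952 the gene was *TPM2* (1.25) and not *TPM4*. The number lower in SHH-positive NCs was 0, and ranged from 0 to 1 when each tag was left out (1, *ACTA2*, without A952). Of the wider list, 26 genes were higher in NCs and 19 to 27 under the alternatives. The number lower was 5, with 10 under median-of-ratios scaling, 8 with totals without the 50 genes with the most reads, 10 without the 5 highest cells and 4 to 7 when each tag was left out. Pairs with a rho of 0.3 or more were 6 in NCs (4 to 7) and 3 in other cells, where 1 was left without total reads and genes detected, the other pairs being just under 0.3. The number of member genes detected in at least 10 percentage points more NCs than other cells was 2, and 3 at 5 reads or after thinning. The share of all genes with such a difference is not given here, so this count does not set the members apart. Among ratios past 2-fold, the direction reversed without A952 for *ACTA2* between NCs and other cells, whose log2 ratio ran from -0.98 to 3.88 when each tag was left out, and for *TPM4* by *SHH*, which ran from -0.51 to 1.28, and the cause was not tested. Of the ratios within 2-fold, those that changed sign without A952 were *TPM4* between NCs and other cells (0.82 to -0.13) and, by *SHH*, *ACTA2* (0.94 to -1.48), *TAGLN* (0.49 to -0.33), *TPM2* (-0.10 to 1.25) and *VIM* (0.09 to -0.15). No paired analysis was possible because all cells came from 1 library.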
